A study of Rattus norvegicus with 16 samples.

Results

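The organic ion transporters and ABC efflux pumps were defined as all gene symbols that begin with Slc22a, Slco, Abcb, Abcc or Abcg followed by a digit. Of the 22517 gene symbols in the files, 57 match this pattern. Of these, 34 reached 1 FPKM (fragments scaled to the length of the transcript and the size of the library) in at least 4 of 16 libraries, a filter that 12079 of all symbols pass. They comprise 9 of 17 Slc22a genes, 5 of 13 Slco genes, 8 of 9 Abcb genes, 6 of 10 Abcc genes and 6 of 8 Abcg genes. By role, 9 were classed as uptake into cells, 13 as efflux and 12 as neither. The efflux class includes Abcg3l1 and Abcg3l2, whose substrates are not known, while Abcg3 was put in neither class.

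All rats were obese males of the Zucker diabetic fatty strain ZDF/GmiCrl-fa/fa, whose leptin receptor is defective. The pair-fed controls carry the same mutation, and no lean animals were compared. From 9 weeks of age, for 2 weeks, the animals ate Purina 5008 chow with added R-α-lipoic acid (LA) or the same chow without it in pair-fed amounts (PF). Liver and epididymal fat, the fat pad beside the testis, were collected at 11 weeks of age from 8 rats. This gave 4 biological replicates in each of 4 groups (LA liver, PF liver, LA fat and PF fat).

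Hepatocytes take up organic anions, cations and bile acids from sinusoidal blood through the Slco family (organic anion transporting polypeptides, OATPs) and the Slc22a family (organic cation, anion and carnitine transporters). ABC proteins of the Abcb, Abcc and Abcg subfamilies use ATP to pump lipids, drugs and conjugates out of the cell, into bile at the canalicular membrane or back into blood at the basolateral membrane. Several Abcb proteins work inside organelles instead. Adipocytes are not known as a site of drug or bile acid clearance, but they export cholesterol.

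The tissues matched their labels. The summed level of 14 hepatocyte markers was 41203 to 52982 FPKM in LA livers and 55255 to 66384 FPKM in PF livers, and at most 1305 and 1488 FPKM in LA and PF fat. Alb and Tf, which hepatocytes express strongly, are listed at 0 in all livers, so a listed 0 can be a failed estimate. Both have values in fat, and without them the sums were at most 461 FPKM in LA fat and 519 FPKM in PF fat. The sum of 8 adipocyte markers was 36069 to 43783 FPKM in fat and at most 72.7 FPKM in liver, where Adipoq is listed at 0. Total read numbers are unknown. Steps between low values put the relative value of 1 fragment at 0.722 to 0.894 in LA livers, 0.853 to 1 in PF livers, 0.739 to 0.866 in LA fat and 0.774 to 0.961 in PF fat. FPKM values summed over all genes did not overlap between the feeds in liver (501595 to 556099 in LA livers, 559290 to 635810 in PF livers). In fat, these sums set LA replicates 1 and 3 and PF replicates 2 and 4 (559553 to 602670) apart from the other 4 libraries (503569 to 539921).

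Upstream sequence can be shown for the ABC genes whose liver level passed the test between feeds, with the window from 250 bases before to 50 bases after the start of 1 transcript per gene. RefSeq (GRCr8) holds such a window for 28 of the 34 members. The 3 windows below belong to Abcb1a (chr4:26397599-26397898, minus strand), Abcc4 (chr15:102181315-102181614, minus strand) and Abcg2 (chr4:89075224-89075523, plus strand), each written along the gene with the 50 bases after that start in capitals. RefSeq's gene boundary lies further upstream, by 90808 bases for Abcb1a, 1548 for Abcc4 and 69418 for Abcg2, so other transcripts of these genes start outside the windows.
Abcb1a: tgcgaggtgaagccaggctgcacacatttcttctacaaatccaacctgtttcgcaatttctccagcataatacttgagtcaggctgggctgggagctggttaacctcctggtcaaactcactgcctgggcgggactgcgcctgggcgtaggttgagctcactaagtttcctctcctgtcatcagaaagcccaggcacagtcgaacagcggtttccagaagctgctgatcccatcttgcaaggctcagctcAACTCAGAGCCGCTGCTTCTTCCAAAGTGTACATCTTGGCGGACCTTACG
Abcc4: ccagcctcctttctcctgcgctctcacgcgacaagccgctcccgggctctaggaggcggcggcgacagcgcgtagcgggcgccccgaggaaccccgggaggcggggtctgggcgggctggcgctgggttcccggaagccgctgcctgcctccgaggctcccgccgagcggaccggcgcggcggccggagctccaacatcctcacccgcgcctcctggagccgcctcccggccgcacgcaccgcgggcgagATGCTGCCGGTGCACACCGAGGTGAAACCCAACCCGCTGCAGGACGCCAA
Abcg2: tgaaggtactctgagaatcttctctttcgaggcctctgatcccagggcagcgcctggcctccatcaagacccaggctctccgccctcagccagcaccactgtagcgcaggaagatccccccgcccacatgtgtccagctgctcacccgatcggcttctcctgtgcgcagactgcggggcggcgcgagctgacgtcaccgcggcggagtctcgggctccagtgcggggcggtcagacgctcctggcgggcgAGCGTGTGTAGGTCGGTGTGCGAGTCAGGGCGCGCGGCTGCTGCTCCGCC
Their G and C content differed, with 53.7% in Abcb1a, 75.3% in Abcc4 and 68% in Abcg2.

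Motifs of factors known to regulate transporters were searched on both strands of every window. The core of the antioxidant response element, TGACNNNGC, occurs in 12.1% of all 33469 windows and in those of 2 members, Abcg5 and Slc22a23. In Abcg5 (chr6:15717686-15717985, plus strand) it lies 28 to 20 bases before the start and is the stretch in capitals.
Abcg5: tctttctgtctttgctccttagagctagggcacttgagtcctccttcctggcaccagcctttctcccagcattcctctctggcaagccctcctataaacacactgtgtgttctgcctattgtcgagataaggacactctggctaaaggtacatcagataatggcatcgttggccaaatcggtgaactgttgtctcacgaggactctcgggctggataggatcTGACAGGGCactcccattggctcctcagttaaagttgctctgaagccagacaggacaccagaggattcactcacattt
Abcg5 encodes the partner of Abcg8 in the canalicular and intestinal sterol pump, and the pair are neighbours in GRCr8. Longer motifs of the bile acid receptor type (an inverted repeat), the xenobiotic receptor type (a direct repeat) and the interferon response type were found in the window of 0 members, against 0.0269%, 0.00896% and 3.92% of all windows. The inverted and the direct repeat have letters in common. A match of letters describes the window, and the absence of one says nothing about the factor.

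Uptake transporters made up most of the summed uptake and efflux level in liver. In fat they made up the smaller part where Abcg3l1 and Abcg3l2 are counted as efflux. Their sum over 9 genes was 537 ± 36.7 FPKM in LA livers and 596 ± 70.3 FPKM in PF livers, against 44.6 ± 4.55 FPKM in LA fat and 40.5 ± 4.09 FPKM in PF fat (mean ± SD, n = 4 per group). The sum of the 13 efflux genes overlapped between all groups, at 70.9 ± 2.78 FPKM in LA livers, 70.0 ± 2.86 FPKM in PF livers, 74.0 ± 8.16 FPKM in LA fat and 67.5 ± 8.22 FPKM in PF fat. Uptake genes thus held 88.3 ± 1.06% of the combined sum in LA livers, 89.4 ± 1.23% in PF livers, 37.7 ± 4.24% in LA fat and 37.6 ± 1.99% in PF fat. Slco1b2 alone gave 46.6 to 54.9% of the uptake sum in LA livers and 45.2 to 55.9% in PF livers. Slco2b1 took that place in fat, with 62.2 to 76.7% under LA and 56.9 to 66.0% under PF. The overlap of the efflux sums depended on the class list. Over all 20 ABC members, Abcg3 and the organelle genes included, the tissues did not overlap. That sum was 138 to 141 FPKM in LA livers and 137 to 142 FPKM in PF livers. In fat it was 99.6 to 119 FPKM under LA and 90.5 to 112 FPKM under PF. Without Slco1b2 the uptake share was 78.7% in LA livers and 81.0% in PF livers. The sums lack Abcb11 and Slco1a1, which are not analysed here, and Abcc2 and Slco1a4, listed at 0 in all 16 libraries. The shares therefore cover the genes summed and not all transporters of a tissue. These shares describe transcript levels per length, and fewer cells of a type and less RNA per cell cannot be told apart in tissue RNA.

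**Figure D1:**
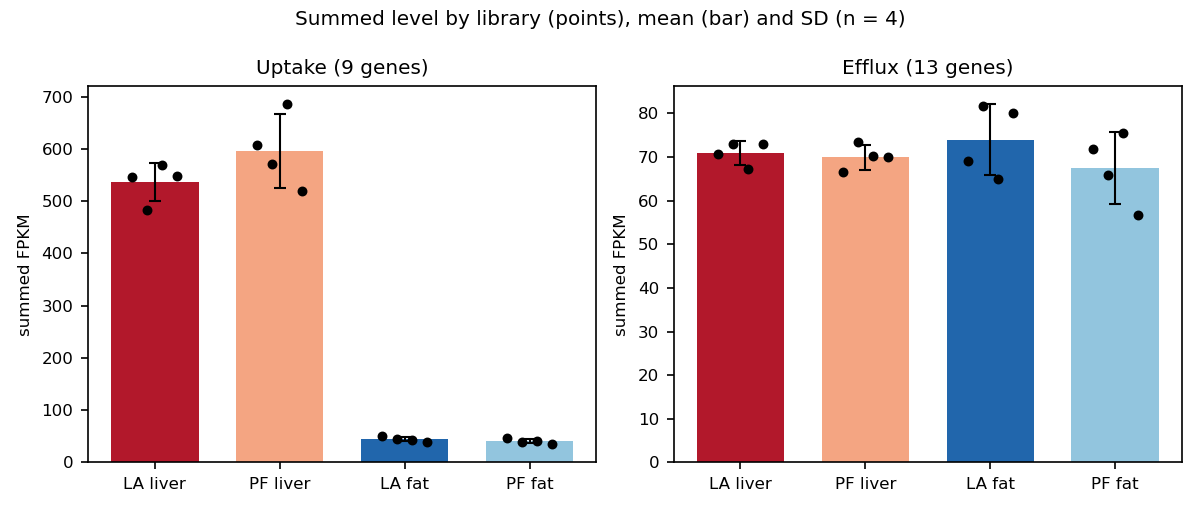
Summed FPKM of the 9 uptake genes (left) and the 13 efflux genes (right) in LA liver, PF liver, LA fat and PF fat, with points for libraries, bars for means and error bars for SD (n = 4 per group). The uptake sum is at least 484 FPKM in every liver and at most 50.5 FPKM in every fat library, while the efflux sums of the tissues overlap.

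Between tissues, most members differed, in both directions. Among PF rats, 32 members were tested for liver against fat with limma on log2(FPKM + 1), and 15 were higher and 8 lower in liver at an adjusted p under 0.05 and a log2 fold change over 1 in size. Of all 11492 genes tested, 47.4% passed, 11.1% higher and 36.3% lower in liver. Among LA rats, 13 of 30 members tested were higher and 8 lower, beside 46.4% of all 11568 genes, 10.5% higher and 36% lower. Of the members tested, 12 in PF rats and 10 in LA rats reached 1 FPKM in a single tissue, so the filter itself favoured a difference for them. Among the other 20 in each case, 9 were higher and 3 lower in PF rats, and 8 were higher and 4 lower in LA rats. Of all genes tested that reached 1 FPKM in both tissues, 9.94% were higher and 28.3% lower in PF rats, and 9.05% and 28.2% in LA rats. With any 1 liver library left out, genes at 1 FPKM in liver alone no longer entered the fit, and 9 members were higher in PF rats and 8 or 9 in LA rats. With any 1 fat library left out, 3 were lower in PF rats and 3 or 4 in LA rats. The median over all genes tested was -0.66 in PF rats and -0.65 in LA rats. Centring each library on its median brought it to -0.03 and -0.0031 and gave 1976 higher and 2337 lower of all genes in PF rats, in place of 1273 and 4174. Under LA the centred split was 1941 higher and 2330 lower, in place of 1211 and 4161. Centred, 17 members were higher and 7 lower in PF rats, and 16 and 7 in LA rats. Libraries of liver and fat did not overlap for 28 of the 34 members, 18 higher in liver and 10 higher in fat, beside 72% of the 12079 genes that pass the same filter, 14.3% higher in liver and 57.7% higher in fat.

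**Figure D2:**
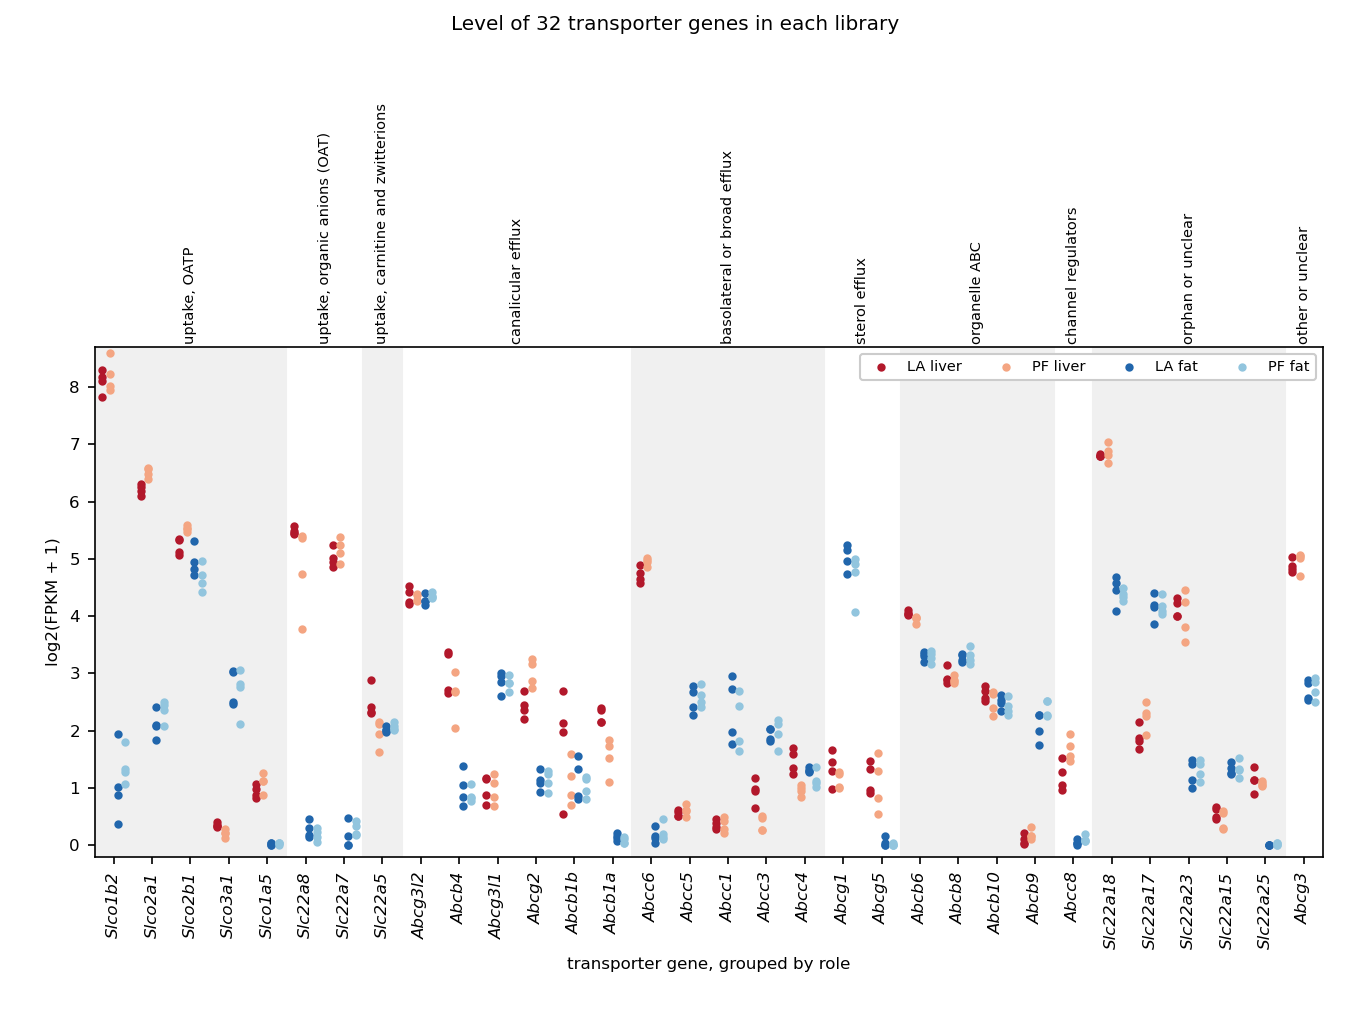
Level of 32 of the 34 transporter genes as log2(FPKM + 1) in each of the 16 libraries (points), grouped along the axis by role and coloured as LA liver, PF liver, LA fat and PF fat. Of the uptake genes at the left, Slco3a1 is higher in fat and Slco1b2, Slco2a1, Slc22a7 and Slc22a8 are higher in liver, while Slco2b1, Abcg3l2, Abcb10, Abcc4, Abcb1b and Slc22a5 overlap between the tissues.

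Slco1b2, the main hepatic OATP of rodents for bile acids and bilirubin conjugates, was the most abundant member in liver. It had 287, 226, 313 and 273 FPKM in LA livers, against 299, 258, 384 and 245 FPKM in PF livers. Fat held 1.03, 0.841, 2.85 and 0.301 FPKM in LA fat, against 1.42, 1.10, 1.53 and 2.51 FPKM in PF fat. The feeds overlapped in both tissues, and liver stood far above fat (log2 fold change, liver over fat, 7.04 in LA rats and 6.82 in PF rats).

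Slco2a1, the prostaglandin transporter, was at 75.5, 78.4, 67.4 and 71.4 FPKM in LA livers, against 83.1, 88.8, 94.1 and 95.4 FPKM in PF livers. All LA livers lay below all PF livers. In fat it was at 2.58, 3.31, 4.30 and 3.23 FPKM in LA fat, against 4.15, 4.46, 3.22 and 4.66 FPKM in PF fat, and the log2 fold change, liver over fat, was 4.10 in LA rats and 4.16 in PF rats.

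Slco2b1, an OATP for steroid sulphates that many tissues express, was the member with the least tissue contrast among abundant uptake genes. Liver had 39.1, 33.7, 32.4 and 39.8 FPKM in LA livers, against 43.0, 44.8, 45.2 and 47.2 FPKM in PF livers, with LA below PF throughout. Fat had 38.8, 29.6, 27.2 and 25.2 FPKM in LA fat, against 30.4, 23.0, 25.2 and 20.5 FPKM in PF fat, where the feeds overlapped. Liver over fat, the log2 fold change was 0.27 in LA rats (adjusted p = 0.0833) and 0.85 in PF rats, under the size limit of 1. With median centring the value in PF rats was 1.48 and passed.

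The other OATPs were low. Slco3a1 averaged 0.280 ± 0.0330 FPKM in LA livers and 0.156 ± 0.0538 FPKM in PF livers, against 5.89 ± 1.49 FPKM in LA fat and 5.63 ± 1.67 FPKM in PF fat, and was the OATP with its higher level in fat (log2 fold change -2.40 in LA rats and -2.48 in PF rats). Slco1a5, a bile acid carrier, stood just inside the filter with a fourth-highest library at 1.10 FPKM, and was at most 0.0322 FPKM in fat. Just outside it were Abcc10 at 0.975 FPKM and Slc22a3 at 0.592 FPKM. Slco1a4, Abcc2 and Abcc9 are listed at 0 in all 16 libraries.

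The organic anion carriers Slc22a7 and Slc22a8 were liver genes here. Slc22a7 had 29.9, 31.3, 27.9 and 36.7 FPKM in LA livers, against 40.8, 36.6, 33.3 and 29.0 FPKM in PF livers, with overlapping feeds. Slc22a8 had 43.5, 42.7, 46.6 and 42.0 FPKM in LA livers, against 41.3, 40.2, 25.7 and 12.8 FPKM in PF livers. All LA livers exceeded all PF livers in Slc22a8, and the PF livers were spread over a wide range. In fat, Slc22a7 was at 0, 0.116, 0.395 and 0 FPKM in LA fat, against 0.346, 0.140, 0.142 and 0.270 FPKM in PF fat, and Slc22a8 at 0.229, 0.130, 0.370 and 0.0997 FPKM in LA fat, against 0.0423, 0.102, 0.173 and 0.237 FPKM in PF fat. The log2 fold changes, liver over fat, were 4.85 (LA) and 4.87 (PF) for Slc22a7, and 5.21 (LA) and 4.64 (PF) for Slc22a8.

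Slc22a5, the high-affinity carnitine transporter, needed for fatty acid oxidation, did not pass between tissues. It had 4.03, 3.98, 4.33 and 6.40 FPKM in LA livers, against 3.35, 2.86, 3.46 and 2.10 FPKM in PF livers. LA livers lay above PF livers, with LA replicate 4 highest. Fat was even, at 3.03, 3.04, 2.94 and 3.24 FPKM in LA fat, against 3.07, 3.23, 3.02 and 3.45 FPKM in PF fat. The log2 fold change, liver over fat, was 0.47 in LA rats and -0.10 in PF rats, and with median centring the LA value was 1.11 and passed and the PF value was 0.53.

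Several of these carriers were as scarce in fat as hepatocyte transcripts were. The 12 hepatocyte markers measured in both tissues stood in fat at 0.353 to 0.694% of their liver mean under LA and at 0.478 to 0.826% under PF. Slco1b2 stood at 0.457% (LA) and 0.553% (PF), Slc22a7 at 0.406% and 0.643%, Slc22a8 at 0.474% and 0.463%, and the efflux gene Abcc6 at 0.491% and 0.583%, all within or below these ranges. Slco2a1 stood at 4.59% (LA) and 4.56% (PF). Library by library, the same 12 markers summed to 220.1, 159, 461 and 54.3 FPKM in LA fat and 307, 222, 264 and 519 FPKM in PF fat. In LA fat, replicate 3 was highest and replicate 4 lowest both in this sum and in Slco1b2, and in PF fat replicate 4 was highest in both. The part of hepatocyte transcripts in the fat values of these genes was not tested.

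**Figure D3:**
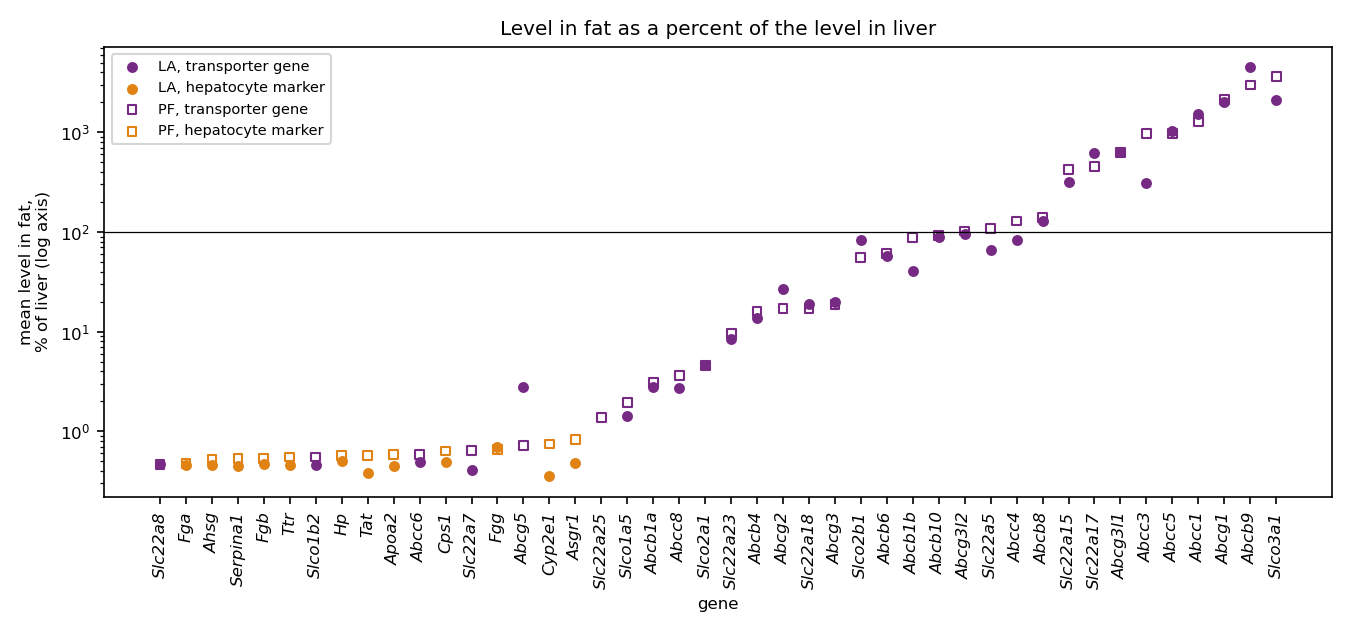
Mean level in fat as a percent of the mean level in liver (log axis, n = 4 per group) for transporter genes and 12 hepatocyte markers, with filled circles for LA and open squares for PF; the line marks 100% and values of 0 are not drawn. Slco1b2, Slc22a7, Slc22a8 and Abcc6 sit among the hepatocyte markers, and Abcg1, Abcb9, Abcc1 and Slco3a1 sit at 1293% or more under both feeds.

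Among the pumps for the canalicular membrane, Abcb1a, Abcb4 and Abcg2 were higher in liver. Abcb1a, a P-glycoprotein that expels drugs, had 3.45, 4.24, 3.42 and 4.12 FPKM in LA livers, against 1.15, 1.89, 2.56 and 2.33 FPKM in PF livers. The LA livers were all above the PF livers. In fat it was at 0.157, 0.121, 0.0917 and 0.0549 FPKM in LA fat, against 0.0349, 0.0282, 0.1003 and 0.0817 FPKM in PF fat, and its log2 fold change, liver over fat, was 2.12 in LA rats and 1.46 in PF rats. Its related gene Abcb1b, which lies beside it and Abcb4 in GRCr8, had 0.457, 5.47, 2.95 and 3.39 FPKM in LA livers, against 0.628, 1.32, 0.827 and 2.00 FPKM in PF livers. The feeds overlapped through the low LA replicate 1. Fat held 0.745, 1.51, 0.821 and 1.93 FPKM in LA fat, against 0.938, 1.24, 1.28 and 0.753 FPKM in PF fat, and Abcb1b passed between tissues in neither feed (log2 fold change 0.70 in LA rats and 0.06 in PF rats). In LA rats it passed with median centring (1.35) and without LA liver replicate 1 (1.13). How fragments were divided between Abcb1a and Abcb1b is not given, so both levels are uncertain.

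Abcb4, which flips phosphatidylcholine into bile, had 5.33, 9.16, 5.52 and 9.38 FPKM in LA livers, against 5.37, 5.48, 7.14 and 3.16 FPKM in PF livers. The feeds overlapped. In fat it was at 1.60, 0.786, 1.07 and 0.611 FPKM in LA fat, against 1.11, 0.716, 0.784 and 0.769 FPKM in PF fat (log2 fold change, liver over fat, 2.03 in LA rats and 1.73 in PF rats).

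Abcg2, a pump for sulphate conjugates, porphyrins and urate, had 4.13, 4.44, 5.51 and 3.63 FPKM in LA livers, against 6.28, 7.93, 5.71 and 8.55 FPKM in PF livers. Every LA liver was below every PF liver. Fat had 1.21, 1.13, 0.916 and 1.51 FPKM in LA fat, against 1.47, 1.11, 0.893 and 1.37 FPKM in PF fat, and the log2 fold change, liver over fat, was 1.30 in LA rats and 1.87 in PF rats.

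The Abcg3 copies are rodent relatives of Abcg2 whose substrates are not known, and near-identical sequence makes their separate levels uncertain. Abcg3 had 27.4, 28.5, 31.6 and 26.2 FPKM in LA livers, against 32.3, 24.9, 32.3 and 31.4 FPKM in PF livers. It was lower in fat, at 4.92, 6.17, 6.42 and 4.83 FPKM in LA fat, against 4.67, 5.37, 6.25 and 6.57 FPKM in PF fat. Abcg3l2 was level across tissues, with 21.9, 17.6, 20.4 and 18.1 FPKM in LA livers, against 18.5, 19.6, 18.2 and 19.9 FPKM in PF livers, and with 18.2, 18.1, 20.2 and 17.3 FPKM in LA fat, against 18.9, 19.5, 19.1 and 20.4 FPKM in PF fat. Abcg3l1 had 1.27, 0.836, 1.23 and 0.621 FPKM in LA livers, against 1.14, 0.805, 0.617 and 1.37 FPKM in PF livers. In fat Abcg3l1 was higher, at 6.19, 6.79, 5.10 and 7.01 FPKM in LA fat, against 5.42, 6.16, 6.09 and 6.86 FPKM in PF fat (log2 fold change, liver over fat, -1.88 in LA rats and -1.86 in PF rats). Abcg3l1 and Abcg3l2 were counted with the efflux genes, and without them the uptake share was 91.4% in LA livers, 92.2% in PF livers, 47.7% in LA fat and 49.6% in PF fat. Uptake then exceeded efflux in LA fat replicates 1 (53.0%) and 3 (52.4%) and in PF fat replicate 4 (55.2%).

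The basolateral and broad pumps of the Abcc family divided by tissue. Abcc6, which releases ATP from hepatocytes and whose loss in humans calcifies connective tissue, led the efflux sum of liver with 28.8, 24.0, 23.0 and 26.0 FPKM in LA livers, against 29.9, 31.5, 30.6 and 27.8 FPKM in PF livers. The feeds touched through LA replicate 1. In fat Abcc6 was at 0.0931, 0.114, 0.258 and 0.0348 FPKM in LA fat, against 0.0738, 0.143, 0.109 and 0.373 FPKM in PF fat (log2 fold change, liver over fat, 4.55 in LA rats and 4.73 in PF rats). Abcc1, for glutathione conjugates, and Abcc5, for cyclic nucleotides, did not exceed 0.646 FPKM in liver. They were higher in fat, where they averaged 4.43 ± 2.09 and 4.85 ± 0.911 FPKM under LA and 3.63 ± 1.57 and 5.06 ± 0.737 FPKM under PF. Abcc1 in fat split the libraries as the summed FPKM did, with 2.41, 5.62, 2.94 and 6.76 FPKM in LA fat and 4.43, 2.12, 5.46 and 2.53 FPKM in PF fat. The part of this split in other fat values was not tested beyond the covariate given with the feed comparison.

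Abcc3 and Abcc4 return bile acids and conjugates to blood and are known to rise in cholestatic liver. Abcc3 had 0.562, 0.965, 0.920 and 1.25 FPKM in LA livers, against 0.395, 0.197, 0.203 and 0.429 FPKM in PF livers. The feeds did not overlap, but Abcc3 was below the filter for the test in liver. In fat it was at 2.61, 3.08, 2.55 and 3.11 FPKM in LA fat, against 3.55, 2.84, 3.33 and 2.12 FPKM in PF fat, and its log2 fold change, liver over fat, was -1.01 in LA rats and -1.59 in PF rats. With median centring neither passed the size limit (-0.36 in LA rats and -0.96 in PF rats), and the LA value missed it also without LA liver replicate 1 (-0.91), LA fat replicate 2 (-0.97) or LA fat replicate 4 (-0.97). Abcc4 had 1.37, 2.24, 1.54 and 2.03 FPKM in LA livers, against 0.794, 1.01, 0.927 and 1.08 FPKM in PF livers. Every LA liver was above every PF liver. Fat had 1.42, 1.498, 1.45 and 1.57 FPKM in LA fat, against 1.58, 1.12, 1.17 and 1.03 FPKM in PF fat. Abcc4 did not pass between tissues (log2 fold change 0.16 in LA rats and -0.19 in PF rats). With median centring the PF value turned to 0.44.

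Abcg1, which moves cholesterol to high-density lipoprotein and is abundant in macrophages and adipocytes, led the efflux genes in every fat library but PF fat replicate 4, where Abcg3l2 did. Liver had 1.73, 1.47, 0.968 and 2.17 FPKM in LA livers, against 1.03, 1.00, 1.36 and 1.43 FPKM in PF livers. Fat had 30.2, 37.0, 25.7 and 34.8 FPKM in LA fat, against 29.1, 26.3, 31.1 and 15.9 FPKM in PF fat, with no overlap between the tissues. The log2 fold change, liver over fat, was -3.68 in LA rats and -3.56 in PF rats. The 11 macrophage markers matched in the files, of which Adgre1 and Marco are listed at 0 throughout, summed to at most 226 FPKM in LA livers and 152 FPKM in PF livers, against 1212 to 2421 FPKM in LA fat and 863 to 1299 FPKM in PF fat. Their part in the Abcg1 level was not tested. Abcg5 had 0.948, 1.76, 0.875 and 1.52 FPKM in LA livers, against 0.455, 2.04, 1.45 and 0.776 FPKM in PF livers. In fat it was at 0, 0.0256, 0.116 and 0 FPKM in LA fat, against 0, 0, 0 and 0.0341 FPKM in PF fat.

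The organelle proteins differed less. Abcb6, a porphyrin transporter, had 15.7, 15.5, 15.3 and 16.1 FPKM in LA livers, against 14.9, 14.6, 14.6 and 13.5 FPKM in PF livers. Fat had 9.37, 9.13, 8.20 and 8.89 FPKM in LA fat, against 9.12, 9.49, 8.61 and 7.92 FPKM in PF fat. The log2 fold change, liver over fat, was 0.75 in LA rats and 0.65 in PF rats, under the size limit, and 1.40 and 1.28 after centring, past it. Abcb8 of the mitochondrial inner membrane had 6.49, 7.85, 6.10 and 6.41 FPKM in LA livers, against 6.11, 6.81, 6.26 and 6.34 FPKM in PF livers. Fat had 9.01, 9.16, 8.37 and 8.16 FPKM in LA fat, against 10.2, 9.02, 8.37 and 7.92 FPKM in PF fat. Its log2 fold change was -0.33 in LA rats and -0.42 in PF rats, and turned to 0.31 and 0.21 with median centring. Abcb9, a lysosomal peptide transporter, reached at most 0.249 FPKM in liver. Fat had 2.99, 3.86, 3.84 and 2.38 FPKM in LA fat, against 4.73, 4.71, 3.75 and 3.83 FPKM in PF fat. Its log2 fold change, liver over fat, was -1.98 in LA rats and -2.20 in PF rats.

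Orphan Slc22a genes were among the abundant members. Slc22a18, an imprinted gene of unsettled substrate, had 112, 110.4, 109.8 and 110.0 FPKM in LA livers, against 130.0, 117, 100.4 and 111 FPKM in PF livers. Fat held 24.6, 22.8, 21.0 and 16.1 FPKM in LA fat, against 19.9, 21.5, 18.2 and 19.2 FPKM in PF fat. Its log2 fold change, liver over fat, was 2.35 in LA rats and 2.48 in PF rats. Slc22a17, a receptor for lipocalin 2, had 3.45, 2.19, 2.67 and 2.54 FPKM in LA livers, against 3.93, 4.69, 2.79 and 3.77 FPKM in PF livers. Fat was higher, with 20.2, 17.2, 16.9 and 13.5 FPKM in LA fat, against 17.0, 19.9, 16.05 and 15.4 FPKM in PF fat (log2 fold change -2.27 in LA rats and -1.93 in PF rats). Slc22a23 averaged 16.7 ± 1.98 FPKM in LA livers and 15.7 ± 4.70 FPKM in PF livers, against 1.42 ± 0.380 FPKM in LA fat and 1.51 ± 0.303 FPKM in PF fat. Abcc8, the sulphonylurea receptor of ATP-sensitive potassium channels, averaged 1.34 ± 0.417 FPKM in LA livers and 2.22 ± 0.466 FPKM in PF livers, and at most 0.149 FPKM in fat.

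The comparison of feeds in liver asked which of these transcripts differed between LA and PF rats. Abcb1a and Abcc4, which pump drugs and conjugates out of hepatocytes, were higher in LA livers. Abcg2, a canalicular pump, was lower. Of 28 members tested 4 passed, 2 higher and 2 lower, beside 4.48% of all 9710 genes tested, 2.27% higher and 2.21% lower. The values in every liver were given above. Abcb1a averaged 3.81 ± 0.434 FPKM in LA livers and 1.98 ± 0.621 FPKM in PF livers (log2 fold change 0.71, SE 0.15, adjusted p = 0.0236). Abcc4 averaged 1.796 ± 0.407 FPKM in LA livers and 0.952 ± 0.121 FPKM in PF livers (log2 fold change 0.51, SE 0.11, adjusted p = 0.0324). Neither gene overlapped between feeds. Abcg2 averaged 4.43 ± 0.793 FPKM in LA livers and 7.12 ± 1.34 FPKM in PF livers (log2 fold change -0.58, SE 0.14, adjusted p = 0.0396). Its libraries did not overlap either. Fold changes here are on the log2(FPKM + 1) scale, which understates those of low genes such as Abcc4.

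**Figure D4:**
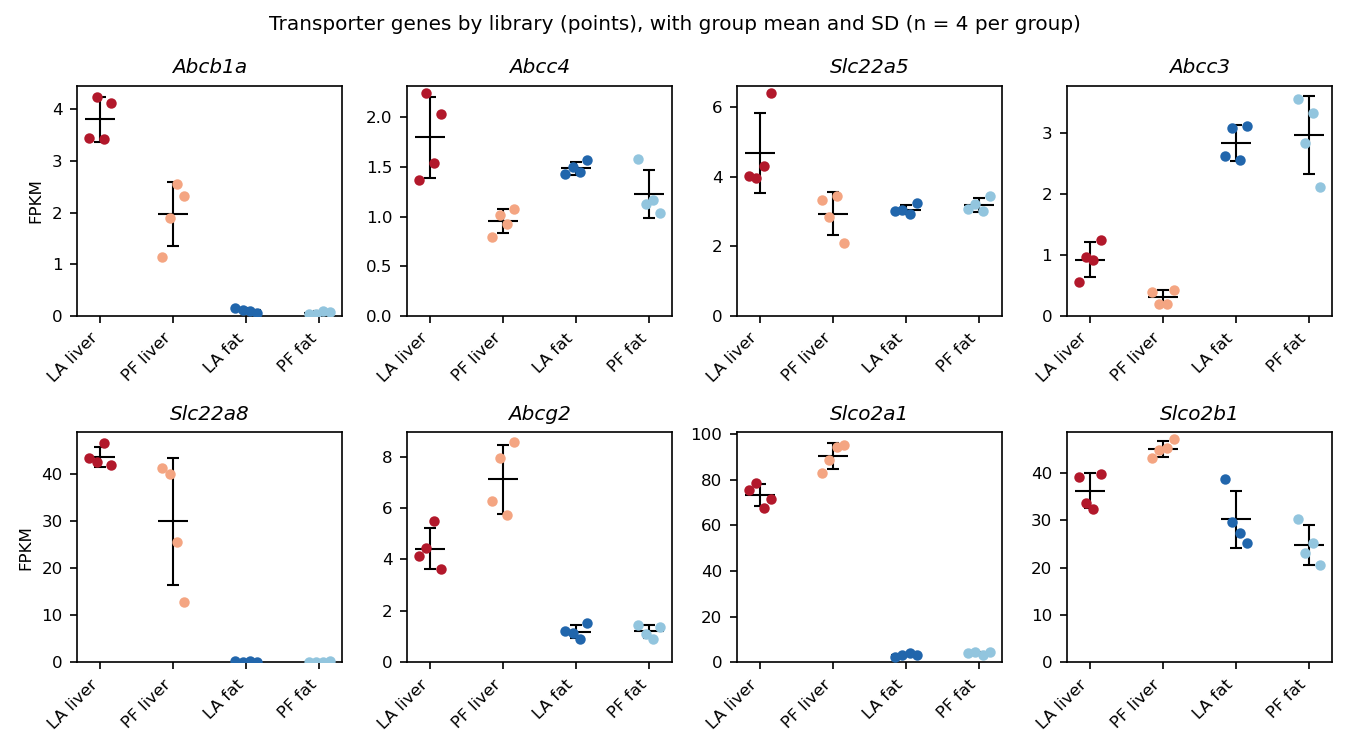
FPKM of 8 transporter genes in each library (points) of LA liver, PF liver, LA fat and PF fat, with group mean and SD (n = 4 per group). In liver, Abcb1a, Abcc4, Slc22a5, Abcc3 and Slc22a8 are higher in every LA library than in any PF library, and Abcg2, Slco2a1 and Slco2b1 are lower in every LA library; in fat the feeds overlap for all 8.

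The calls were near the threshold. Without 1 library, Abcb1a did not pass for LA 2, LA 4 or PF 2 (adjusted p 0.0586 to 0.0787), Abcc4 for LA 2, LA 4, PF 1, PF 2 or PF 3 (adjusted p 0.0615 to 0.0939) and Abcg2 for LA 1, LA 2, LA 4, PF 1, PF 2 or PF 4 (adjusted p 0.0629 to 0.0982). With each library's summed FPKM as a covariate, 48 genes passed in all and 0 members did. The log2 fold changes were then 0.50 for Abcb1a, 0.41 for Abcc4 and -0.58 for Abcg2. Since the summed FPKM did not overlap between the feeds in liver, the covariate and the feed cannot be told apart by this fit. Cell type markers moved in the same livers, where 2.27% of all genes tested were called higher and 2.21% lower. Of 12 hepatocyte markers tested, 2 were lower in LA livers (list median -0.31), and their sums, given above, did not overlap between feeds. Of 8 macrophage markers tested, 2 were higher (list median 0.51), and the list summed to 167 to 226 FPKM in LA livers and 124 to 152 FPKM in PF livers, with Adgre1 and Marco listed at 0. Their part in the transporter differences was not tested.

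The members that did not pass are given by value. Libraries of the feeds did not overlap for 9 of the 28 members tested, beside 12.3% of all genes tested. Besides the 4 called, these were Slco2a1 (log2 fold change -0.30, adjusted p = 0.0520), Slco2b1 (-0.31, adjusted p = 0.0591), Slc22a5 (0.52, adjusted p = 0.0824), Slc22a8 (0.66, adjusted p = 0.242) and Abcb6. Abcc3 and Slco3a1, below the filter, did not overlap either. Abcc3 entered a limma model of all 16 libraries through its level in fat, and its liver value there was 0.55 (adjusted p = 0.0287). In liver it reached at most 1.25 FPKM and missed the filter, so it is not counted among the calls. Abcb1b had the largest log2 fold change, 0.74, with an SE of 0.38 and an adjusted p of 0.313. Without LA replicate 1 its value was 1.18 (adjusted p = 0.0239). Slco1b2, the most abundant, was at -0.10 (SE 0.15, adjusted p = 0.778).

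By class, the liver medians lay on either side of 0. Of 8 uptake genes tested, 0 were higher and 1 lower, with a median log2 fold change of -0.15. Of 10 efflux genes, 2 were higher and 1 lower, with a median of 0.16. Of 10 in neither class, 0 passed, with a median of 0.0074. All genes tested had a median of -0.0020. The uptake share of the summed level overlapped between the feeds in liver, at 86.9 to 89.4% in LA livers and 88.1 to 90.7% in PF livers, and in fat, at 33.0 to 42.2% in LA fat and 34.8 to 39.0% in PF fat.

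**Figure D5:**
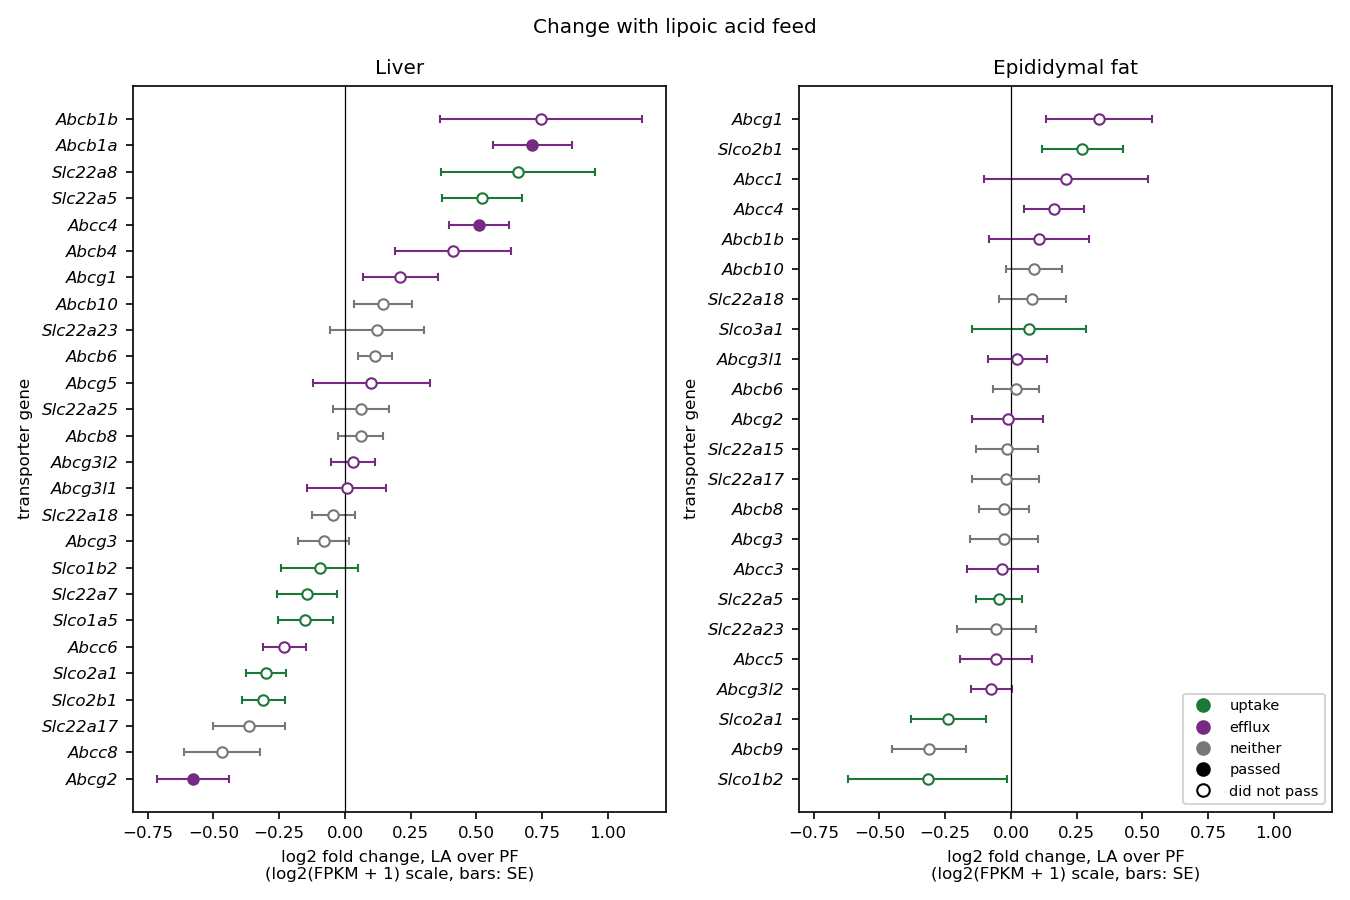
Log2 fold change, LA over PF, on the log2(FPKM + 1) scale with SE for 26 transporter genes tested in liver (left) and 23 in epididymal fat (right), coloured by class, with filled points for genes that passed at an adjusted p under 0.05. In liver Abcb1a and Abcc4 are filled to the right of 0 and Abcg2 to the left; in fat 0 points are filled.

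In fat the feeds could not be told apart by this test for any of the 24 members tested. The other 10, Abcb1a among them, were below the filter there and were not tested. Of 24 members tested with limma, 0 passed, beside 0.0174% of all 11501 genes, 0.00869% higher and 0.00869% lower. An unadjusted p under 0.05 was found for 0 members and for 451 of the 11501 genes. Libraries of the feeds overlapped for all 24, while 2.08% of all genes tested did not overlap. The smallest p belonged to Abcb9 (log2 fold change -0.31, SE 0.14, unadjusted p = 0.0534, adjusted p = 1.00). Next were Slco2b1 with 0.27 (SE 0.15), Abcg1 with 0.34 (SE 0.20), Slco2a1 with -0.24 (SE 0.14) and Abcc4 with 0.17 (SE 0.11). With the summed FPKM as a covariate, 0 members passed, beside 4 of the 11501 genes. An unadjusted p under 0.05 was then found for 2 members and for 1116 genes. A p above the threshold does not show that the feeds were alike.

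Whether the feeds differed more in liver than in fat was tested over all 16 libraries. Of 34 members, 0 passed, beside 0.381% of all 12079 genes, 0.232% with the higher and 0.149% with the lower value in liver. An unadjusted limma p under 0.05 was found for 7 of the 34 members and 991 of the 12079 genes. The smallest adjusted p was 0.175, for Abcb1a (difference of log2 fold changes, liver minus fat, 0.65, SE 0.18). Abcb1a stood at 0.157 FPKM or less in fat, where the log2(FPKM + 1) scale can show little change. Its difference therefore largely repeats its fold change in liver. Slco2b1 followed at -0.58 (adjusted p = 0.257), with LA below PF in every liver and the feeds overlapping in fat. Abcc3 was at 0.58 (adjusted p = 0.264), Slc22a5 at 0.57 (adjusted p = 0.278) and Abcg2 at -0.56 (adjusted p = 0.325). The calls in liver are therefore not shown to differ from fat.

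Genes outside the pattern, not all of which carry organic ions or are transporters themselves, were read from a list. Of 30 matched genes listed as other transporters of bile acids, organic ions, sterols and peptides, 20 were tested between feeds in liver. Of these, 2 were higher and 1 lower, beside 4.48% of all 9710 genes tested, 2.27% higher and 2.21% lower. The higher ones were Tap1, which feeds peptides to MHC class I, with 10.6 ± 1.70 FPKM in LA livers and 6.62 ± 0.895 FPKM in PF livers, and Tapbp, its partner tapasin, with 16.7 ± 1.56 FPKM in LA livers and 12.8 ± 0.877 FPKM in PF livers. The lower one was Abca8a, with 11.9 ± 1.86 FPKM in LA livers and 21.6 ± 1.86 FPKM in PF livers. Slc10a1, the sodium-dependent bile acid carrier of hepatocytes, averaged 250.2 ± 27.8 FPKM in LA livers and 312 ± 37.7 FPKM in PF livers and did not pass. Of 25 regulators and scaffolds matched, 23 were tested in liver, and 2 were higher and 0 lower, beside the same shares of all genes. They were Nr1i3, the xenobiotic receptor CAR, with 6.12 ± 2.05 FPKM in LA livers and 2.92 ± 0.615 FPKM in PF livers (log2 fold change 0.83, SE 0.19, adjusted p = 0.0357), and Ezr, ezrin, which ties membrane proteins to actin, with 2.56 ± 0.316 FPKM in LA livers and 1.07 ± 0.455 FPKM in PF livers (log2 fold change 0.81, SE 0.16, adjusted p = 0.0170). The bile acid receptor Nr1h4 averaged 25.3 ± 3.26 FPKM in LA livers and 23.0 ± 3.37 FPKM in PF livers, and the xenobiotic receptor Nr1i2 58.5 ± 7.19 FPKM in LA livers and 58.1 ± 7.65 FPKM in PF livers. In fat 0 of 22 genes of the transporter list and 0 of 13 regulators tested passed, beside 0.0174% of all 11501 genes.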

How the data were processed

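TRIzol and RNeasy columns were used to isolate RNA, which was sequenced from TruSeq V2 libraries, a kit that does not mark strand, per the labels' protocols. The submitters' processing notes list CASAVA 1.8.2, TopHat and Cuffdiff. Neither build nor annotation is given in the sources used here. FPKM values were deposited by the authors, with 1 value for each symbol in each library, per the file headers. No counts are held, so depth is unknown and precision rests on the spread of 4 replicates per group.

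limma 3.58.1 (R 4.3.3, trended variance) was run on log2(FPKM + 1). A gene entered a fit where at least 4 of its libraries had 1 FPKM or more, and p-values were adjusted by Benjamini and Hochberg's method over all genes tested. Genes passed at an adjusted p under 0.05; between tissues the log2 fold change also had to exceed 1 in size. The feeds were fitted within each tissue. The labels do not tie liver and fat libraries to a rat, so fits across tissues treated them as independent and their p-values rest on that. Uptake and efflux were summed by a list of roles. Of the symbols, 56 are current in RefSeq's table (GRCr8) and 1 is an older name. Abcb11 and Slco1a1 are not analysed here. The values of 2 members are not reported here, though counts, medians and sums over members include them.

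The members, roles and gene lists were chosen with earlier results of these data known. Values by library are given for members called, those with the smallest p, the 8 highest per tissue and a preset. Other settings tried were another pseudocount (0.1), all genes unfiltered, median-centred libraries, the replicate number as a block, single libraries left out, 1 model of 16 libraries, an adjusted p under 0.1 and other fold limits. The summed FPKM as covariate and the sums without Slco1b2 or the Abcg3 copies were added after seeing the data. Figures used matplotlib 3.10.9.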

Additional observations from a re-analysis of the deposited data

Results flagged for a closer look

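In 3 of the 100 groups of 4 libraries examined, 1 library lay far from the other 3, with a gap to its nearest neighbour that was too large a part of the group's range by Dixon's criterion. Chance gives about 1 in 20 groups, so this is no more than chance would give. Slc22a5 in LA liver replicate 4 was at 6.40 FPKM, with the others at 3.98 to 4.33 FPKM. Abcg3 in PF liver replicate 2 was at 24.9 FPKM, with the others at 31.4 to 32.3 FPKM. Abcg5 in PF fat replicate 4 was at 0.0341 FPKM and is listed at 0 in the other 3.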

How the results depend on the processing

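The liver count of 4 members called between feeds depended on the settings. Without the filter it was 2, 1 higher and 1 lower, beside 337 of all 15621 genes. The higher one was Abcc3, which entered as more genes were tested, and Abcb1a and Abcc4 did not pass there. The count was 0 with the summed FPKM as covariate, which did not overlap between the feeds in liver. It was 8 at an adjusted p under 0.1, beside 848 of 9710 genes, and 0 when a 2-fold change was also required, beside 68. With 1 library left out it was 0 to 4, beside 208 to 404 of all genes. It was 0 without LA replicate 2 or PF replicate 2 and 1 without LA replicate 4 or PF replicate 1. Median centring added Slco2a1 and Slco2b1 (6 called, beside 464 of 9710 genes). The model of all 16 libraries called 6, beside 344 of 12079 genes, with Slc22a5, Abcc3 and Abcc8 among them. Abcc3 entered that model through its level in fat. Slco1b2 between feeds in liver changed direction without PF replicate 3 and ranged over -0.18 to 0.035 with 1 library left out. With median centring Abcb8 between tissues turned to 0.31 in LA rats and 0.21 in PF rats. Slc22a5 and Abcc4 in PF rats also turned from lower to higher in liver with centring, as given above. The cause was not tested. Counts between tissues were 16 to 17 (LA) and 17 to 18 (PF) with 1 library left out, where fewer members pass the filter. Of all genes, 3907 to 5055 passed among 9922 to 11184 tested (LA). In PF rats 3932 to 5136 passed among 9823 to 11116. In fat, and for the difference between tissues, 0 members passed under every alternative run.

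The uptake share was 82.7% in LA livers, 83.9% in PF livers, 44.0% in LA fat and 43.8% in PF fat when all Slco and Slc22a genes were set against all ABC genes. Without Slco1b2 it was 78.7% in LA livers and 81.0% in PF livers, and without the Abcg3 copies 91.4%, 92.2%, 47.7% and 49.6% in LA livers, PF livers, LA fat and PF fat. With 1 library left out it was 87.9 to 88.7% in LA livers, 89.0 to 89.8% in PF livers, 36.2 to 39.3% in LA fat and 37.1 to 38.5% in PF fat.

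Replicate numbers did not pair LA with PF libraries within a tissue, and whether they pair liver with fat libraries was not settled. Between liver and fat, same-numbered libraries had correlations of deviations of 0.07, 0.29, 0.12 and -0.03 in PF rats. In LA rats these were -0.14, 0.11, 0.09 and -0.22. Differently numbered liver and fat libraries ranged over -0.24 to 0.11 in PF rats and -0.23 to 0.28 in LA rats. Same-numbered LA and PF libraries had correlations of deviations of 0.15, 0.03, 0.07 and -0.0035 in liver and -0.06, -0.26, -0.36 and -0.43 in fat. With the number as a replicate block, limma called 3 members in liver in place of 4, beside 476 of 9710 genes. Abcg2 was not among them (adjusted p = 0.0695). Between tissues 23 members (PF) and 21 (LA) were called, as without the block.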
